A study of Mus musculus with 4 samples.

Results

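The genes described here carry out DNA replication and the S phase: 44 genes whose products license origins, run the replication fork or supply nucleotides. They were listed by function, with earlier results of these data known. A gene counts as measured where the array's annotation pairs at least 1 probe set with that symbol alone, and its probe set of highest mean over the 4 arrays stands for it. 43 of the 44 were measured, among 18193 genes in all. No probe set is annotated to Chaf1a, the large subunit of the chromatin assembly factor, and it has no value below.

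The study compared hair follicle stem cells (HFSCs, the cells that rebuild the follicle in each hair cycle) of miR-205 knockout (KO) and wild-type (WT) skin, both on a C57BL/6 background at postnatal day 4. Cells were sorted by FACS and their RNA was put on 1-colour Affymetrix arrays, 2 per genotype, titled as biological replicates 1 and 2. The surface markers of the sort, the deleted part of the miR-205 locus, any Cre driver, and whether animals were pooled are not stated in the labels, so p-values measure only the spread between these 4 samples. The treatment field of all 4 samples describes other mice, the dox-treated K14-rtTA/TRE-miR-203/K14-H2BGFP line and its TRE-miR-203/K14-H2BGFP controls, and it names no miR-205 allele.

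The microRNA that the KO label names has these mature forms in RefSeq (GRCm38.p6, minus strand, chr1:193507503-193507524 for the 5p arm and chr1:193507467-193507488 for the 3p arm). They are shown because they are the only difference the labels name between the groups. Capitals mark the seed, bases 2 to 8, which pairs with target messages.
mmu-miR-205-5p: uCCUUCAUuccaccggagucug
mmu-miR-205-3p: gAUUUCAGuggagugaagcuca

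Replication starts at origins bound by the origin recognition complex (ORC). In G1, CDC6 and CDT1 load the ring-shaped MCM helicase, made of the products of Mcm2 to Mcm7, and geminin (Gmnn) blocks CDT1 once S phase has begun. The kinases CDC7 and cyclin E-CDK2 then help CDC45 and the GINS complex turn the ring into a moving helicase, behind which polymerases, the sliding clamp PCNA and its loader RFC copy both strands. Most of these genes are transcribed by E2F factors as cells leave G1, so their RNA is widely read as a sign of cycling cells; in postnatal skin, stem and progenitor cells of the growing follicle divide actively.

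Promoter sequence in RefSeq (GRCm38.p6) was at hand for 35 of the 44 genes, as windows from 250 bases before to 50 after a transcript start. The E2F site, searched as TTTCCCGC, TTTGGCGC, TTTCGCGC or TTTGCCGC on both strands (copies may overlap one another), was found in 13 of the 35 genes (37.1%) and in 2.61% of the 27025 genes with a window. The NF-Y box CCAAT was found in 24 of the 35 (68.6%) against 41.1% of all genes, and the CHR element TTTGAA, a feature of many G2 and M phase promoters, in 5 of the 35 (14.3%) against 20.2%. These are matches of letters, with no measurement of binding. The E2F matches of 4 licensing genes that the values below turn on are shown, each ahead of a transcript start, with the matched letters in capitals.
Cdc6, chr11:98908002-98908031, plus strand: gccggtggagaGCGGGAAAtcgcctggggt
Mcm6, chr1:128359782-128359841, minus strand: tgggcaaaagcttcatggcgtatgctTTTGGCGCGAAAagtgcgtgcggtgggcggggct
Mcm5, chr8:75109330-75109389, plus strand: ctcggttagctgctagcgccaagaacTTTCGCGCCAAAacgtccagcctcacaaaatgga
Orc1, chr4:108579416-108579445, plus strand: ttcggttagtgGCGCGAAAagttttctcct
In Mcm6 and Mcm5 a pair of matches overlaps, 1 on each strand. Mcm6 has 3 matches ahead of its start, and the stretch shown holds only that pair. The matches of Mcm3, Cdt1, Clspn and Lig1 lay only after the start and are not shown. The 4 genes above share this element and were chosen for their values, so the directions of those values say nothing about it.

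Values are log2 expression, and the median gene had a mean level of 6.88. All 11 HFSC markers examined had a mean above that level, among them Krt15 (13.62 to 14.05), Lhx2, Sox9 and the basal keratins Krt5 and Krt14. Cd34, a surface marker of these cells, had so only through WT 1: it was at 8.32 there and at 6.20 on WT 2, 6.87 on KO 1 and 6.69 on KO 2. The arrays of the genotypes also differed in sex-linked RNA: Xist was at 13.28 and 13.19 on WT 1 and WT 2 and at 5.26 and 5.45 on KO 1 and KO 2, and the Y-linked Eif2s3y at 3.05 and 2.86 on the WT and 9.59 and 9.57 on the KO arrays. Genotype and this difference cannot be told apart. WT 1 stood apart in dermal fibroblast markers, 11 of the 12 being highest there. The log2 levels of the 12 summed to 129 on WT 1 and 103 on WT 2, and to 116 on KO 1 and 106 on KO 2. By mean level, 11 of the 12 lay above the median gene. The median of the 12 was 10.37 on WT 1, 8.37 on WT 2, 9.08 on KO 1 and 8.74 on KO 2. Of the 6 endothelial and 5 immune markers, 1 each lay above the median gene, and of 5 melanocyte markers 3 did and 4 were highest on WT 1. The 6 hair matrix markers all lay above the median gene. Of these, 3 were higher on KO 1 than on WT 1, and all 6 were higher on KO 2 than on WT 2. The 5 markers of differentiated epidermis, 4 above the median gene, summed to 49.2 and 48.9 on KO 1 and KO 2 and to 47.4 and 45.9 on WT 1 and WT 2. Krt1, Krt10 and Krtdap had both KO arrays above both WT arrays, with differences of 1.25, 0.81 and 0.37 (limma adjusted p = 1 each). In Lor and Ivl the groups overlapped, with differences of 0.09 and -0.11. The part of these markers in the values below was not tested. In bulk RNA, fewer cells in S phase and less RNA per cell cannot be told apart.

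The RNA levels of the replication genes differed little between KO and WT cells, and no member passed the threshold. Differences are KO minus WT on the log2 scale, tested with limma over all 18193 genes with Benjamini-Hochberg adjustment and a threshold of 0.05. 0 of the 43 members passed, against 2 of all genes (0.011%), and every member's limma adjusted p was 1. The 2 were Xist and Eif2s3y, the sex-linked genes whose difference cannot be told apart from genotype. 1 member, Cdc6, had an unadjusted p under 0.05, against 1.88% of all genes. The differences ran from -0.21 to 0.46, and 33 of the 43 were smaller than 0.1 in size. So were 11911 of all 18193 genes, and 6079 of the 9096 genes above the median gene. Their median was -0.01, beside 0.01 for all genes. The 95% confidence interval of the single gene, not adjusted for the number of genes, lay inside a 2-fold change either way for 42 of the 43, and inside a 1.5-fold change for 36. The exception to the first was Tyms, and some narrow intervals rest on tied values. Neither count of intervals has a share over all genes beside it.

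17 members (39.5%) had a higher and 26 a lower mean in KO cells, where 53.2% of all genes and 56.9% of genes above the median gene were higher. That split changed with single WT arrays. Without WT 1, 13 were higher and the median was -0.08, and without WT 2, 30 were higher and the median was 0.04. Both KO arrays lay above both WT arrays for 5 members (Cdc6, Mcm6, Gins1, Rrm1 and Clspn), or 11.6% against 8.2% of all genes, and below both for 3 members (Mcm2, Mcm3 and Mcm5), or 6.98% against 5.7%. These shares were near the background. The 3 that lay below are all subunits of the MCM ring, and so is Mcm6, which lay above.

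Cdc6 stood highest among the differences. It encodes the loader that brings the MCM ring to ORC at each origin. Its values were 7.61 and 7.42 on WT 1 and WT 2, and 8.07 and 7.88 on KO 1 and KO 2. Both KO arrays lay above both WT arrays, and KO exceeded WT by 0.46 within either replicate number. The group means were 7.98 ± 0.13 and 7.52 ± 0.13 (SD, n = 2 each), a difference of 0.46 or 1.37-fold, with an SE of 0.11 and a 95% interval from 0.10 to 0.81 (limma unadjusted p = 0.026, adjusted p = 1). A single probe set measures Cdc6, so no second one was there to compare. The difference was 0.36 to 0.55 with any 1 array left out, and its unadjusted limma p then lay between 0.075 and 0.15. In those fits 1 genotype has a single array, which is assumed to vary like the arrays of the other genotype.

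**Figure D1:**
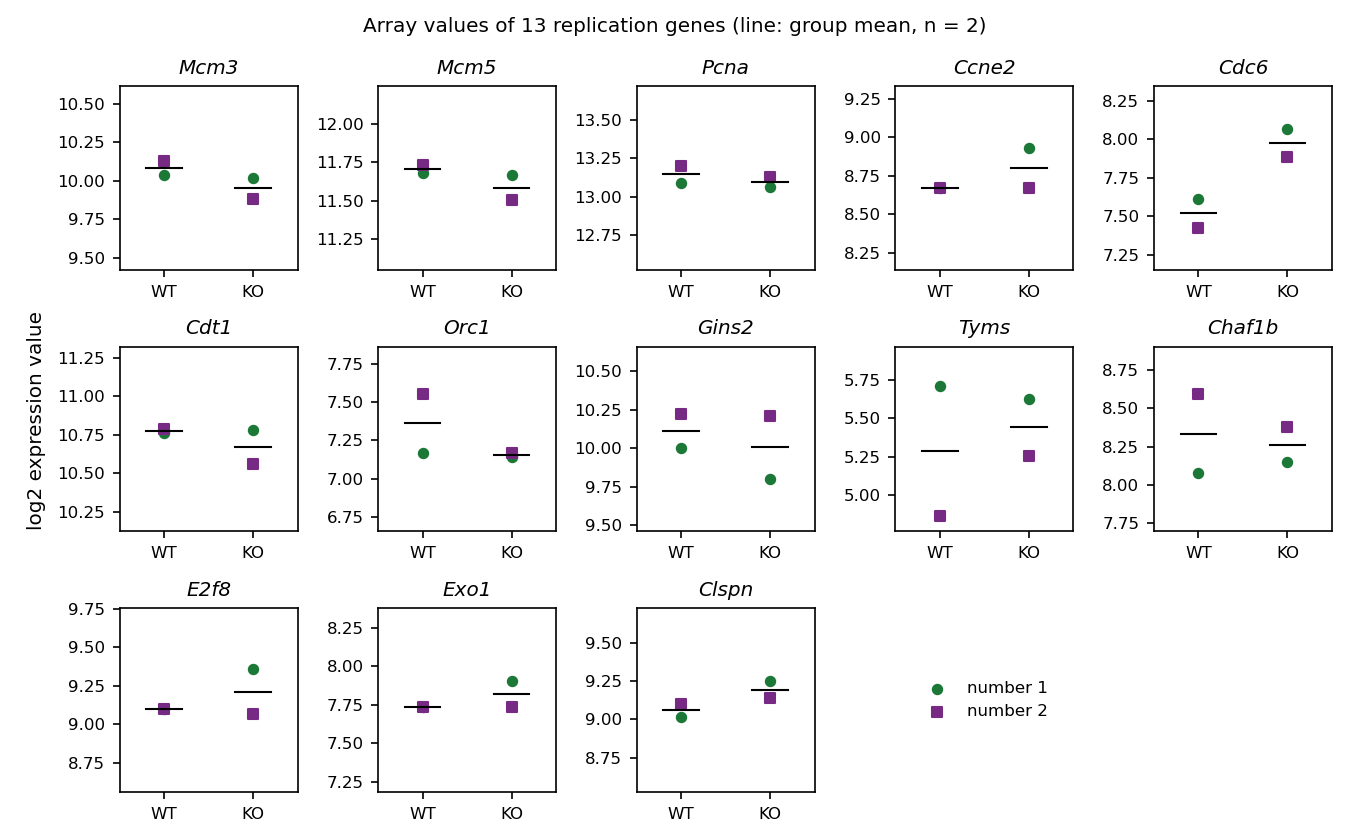
Log2 expression values (vertical axis, 1.2 units tall in each panel) of 13 replication genes on the WT and KO arrays; circles are arrays numbered 1, squares arrays numbered 2, and each line is the mean of a group of 2. Cdc6 is higher on both KO arrays (8.07 and 7.88) than on both WT arrays (7.61 and 7.42), and in most other panels the groups overlap.

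The 12 licensing genes had a median difference of -0.05, with 3 higher and 9 lower in KO cells, and a median of 0.01 without KO 2. Orc1, the largest ORC subunit and the one whose level varies through the cell cycle, had the most negative difference of all members. It was at 7.17 and 7.55 on WT 1 and WT 2 and at 7.14 and 7.17 on KO 1 and KO 2. The gap was carried by WT 2, the other 3 arrays lying within 0.03 of one another, so the difference of -0.21 (SE 0.16, limma adjusted p = 1) fell to -0.02 without that array. Its second probe set, nearer to the dim end, differed by 0.00. Orc2 and Orc6, further ORC subunits, differed by 0.01 and -0.03.

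Of the MCM ring, 5 of 6 subunits were lower in mean and Mcm6 was higher. Mcm3 was at 10.04 and 10.13 on WT 1 and WT 2 and at 10.02 and 9.88 on KO 1 and KO 2, and Mcm5 at 11.68 and 11.73 on the WT and 11.67 and 11.50 on the KO arrays. In both genes the KO arrays were the lower ones without overlap, but KO 1 lay within 0.02 of WT 1. The differences were -0.13 (SE 0.08) for Mcm3 and -0.12 (SE 0.08) for Mcm5, neither past the threshold (limma adjusted p = 1). Mcm2, Mcm4 and Mcm7 differed by -0.07, -0.07 and -0.01. Mcm6 was at 11.69 and 11.70 on the WT and at 11.75 and 11.77 on the KO arrays, a difference of 0.07 (SE 0.04) that was alike within the numbers.

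Other probe sets of the MCM genes above the median gene were lower in KO cells for Mcm2 (-0.09, lower within both numbers) and Mcm5 (-0.06, both KO arrays below both WT arrays). The second probe set of Mcm4 had both KO arrays below both WT arrays, at 11.17 and 10.81 on KO 1 and KO 2 against 11.32 and 11.18 on WT 1 and WT 2. The 3 further probe sets of Mcm7 differed by -0.11, -0.05 and -0.05. Those of Mcm3 above the median gene differed by -0.13, -0.03 and 0.03, and the second of Mcm6 by 0.09, where KO 2 at 10.99 was the lowest of the 4 arrays.

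Cdt1, the partner of CDC6, was at 10.76 and 10.79 on WT 1 and WT 2 and at 10.78 and 10.56 on KO 1 and KO 2. KO 2 was the low array and KO 1 lay between the WT arrays, so the difference of -0.10 (SE 0.10) became 0.01 without KO 2. Its second probe set, at 9.23 and 9.27 on WT 1 and WT 2 and at 9.12 and 9.13 on KO 1 and KO 2, had both KO arrays lower, by 0.11 within number 1 and 0.14 within number 2. Gmnn, the inhibitor of CDT1, differed by -0.04 (SE 0.07).

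The 5 helicase activation genes had a median of -0.0046, which turned to 0.0041 with median centring of the arrays and ran from -0.06 to 0.02 with 1 array left out. Gins2, a subunit of the GINS complex, was at 10.001 and 10.22 on WT 1 and WT 2 and at 9.80 and 10.21 on KO 1 and KO 2. The number 2 arrays were the high ones in both genotypes, and KO 1 was the lowest of the 4 arrays. The difference of -0.11 (SE 0.19) became 0.10 without KO 1 and 0.0041 without WT 2. Its second probe set gave -0.17, again with the number 2 arrays high and KO 1 lowest. Gins1, of the same complex, differed by 0.08 (SE 0.07), with KO 2 at 9.19 barely above the shared WT value of 9.18. The kinase gene Cdc7, the helicase factor Cdc45 and the firing factor Mcm10 differed by -0.0046, -0.00038 and -0.03, Cdc45 by 0.14 within number 1 and by -0.14 within number 2.

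Of the 3 cyclin E and E2F genes, Ccne2 and E2f8 had higher KO means that rest on KO 1 alone. Ccne2, a cyclin that drives entry into S phase, was at 8.93 on KO 1 and at 8.67 on each of the other 3 arrays. E2f8, a repressor that closes the E2F programme, was at 9.36 on KO 1, at 9.06 on KO 2 and at 9.10 on both WT arrays. The differences were 0.13 (SE 0.11) and 0.11 (SE 0.13), and without KO 1 they were 0.00 and -0.04. Ccne1, the other cyclin E gene, differed by -0.08 (SE 0.11), below WT within both numbers, with groups that overlap.

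All 13 fork synthesis genes differed by less than 0.1. Their median was 0.01, and its sign turned with quantile normalization again (-0.0026) and with the mean of probe sets (-0.0080); it was -0.10 without WT 1. Pcna, the sliding clamp, was at 13.09 and 13.20 on WT 1 and WT 2 and at 13.06 and 13.13 on KO 1 and KO 2. The groups overlap, and the difference was -0.05 (SE 0.07, 95% interval -0.26 to 0.15), or 0.01 without WT 2. Exo1, a nuclease of mismatch repair and end resection, was at 7.91 on KO 1 and at 7.74 on the other 3 arrays, a difference of 0.08 (SE 0.08) that was 0.00 without KO 1. The polymerase genes Pola1 and Pole differed by 0.06 and 0.01, the primase subunits Prim1 and Prim2 by -0.07 and 0.03, and the clamp loader genes Rfc3, Rfc4 and Rfc5 by -0.01, -0.05 and -0.03. Those for single-strand binding (Rpa1 and Rpa2) differed by -0.04 and 0.01, and Fen1 and Lig1, which trim and seal Okazaki fragments, by 0.02 and 0.01. The second probe set of Prim2 went further, at 8.66 and 8.55 on the KO arrays and 7.84 and 8.66 on WT 1 and WT 2, a difference of 0.36 that rests on WT 1.

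Among genes that guard the fork, Clspn, the mediator that carries the stalled-fork signal from ATR to CHK1, was at 9.02 and 9.10 on WT 1 and WT 2 and at 9.25 and 9.14 on KO 1 and KO 2. Both KO arrays were above both WT arrays, by little for KO 2, and the difference was 0.13 (SE 0.07, limma adjusted p = 1). Its second probe set differed the same way and by more, 0.42, but overlapped: KO 2 at 7.12 lay below WT 1 at 7.20. Tipin, of the fork protection complex, differed by -0.02. Dtl, which directs CDT1 to destruction during S phase, differed by -0.01, and its 3 other probe sets above the median gene differed by 0.42, -0.07 and -0.50.

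In nucleotide supply, the ribonucleotide reductase subunit gene Rrm1 was at 10.71 on both WT arrays and at 10.74 and 10.75 on KO 1 and KO 2, above them by 0.04 (SE 0.04), and its next probe set differed by 0.15, above WT within both numbers. Rrm2 differed by 0.08 (SE 0.10), with 0.25 within number 1 and -0.09 within number 2. Tk1, the thymidine salvage kinase, differed by -0.03 (SE 0.21), its number 2 arrays being the high ones. Tyms, thymidylate synthase, was the only member below the median gene, at 5.71 and 4.86 on WT 1 and WT 2 and at 5.63 and 5.26 on KO 1 and KO 2. The WT arrays enclose the KO arrays, so the difference of 0.15 (SE 0.38, 95% interval -1.03 to 1.33) was undetermined, and it was -0.03 without KO 1 and -0.27 without WT 2. Another probe set, annotated to Tyms together with a pseudogene, was left out.

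The 3 measured chromatin genes all had lower means in KO cells, with a median of -0.03. That median was 0.02 with the mean of probe sets, -0.19 without WT 1 and 0.13 without WT 2. Chaf1b, the middle subunit of the chromatin assembly factor, was at 8.08 and 8.59 on WT 1 and WT 2 and at 8.15 and 8.38 on KO 1 and KO 2. The KO values lie between the WT values, and the difference of -0.07 (SE 0.23) became 0.04 without KO 1 and 0.18 without WT 2. Slbp, which binds histone messages, differed by -0.03 (SE 0.16), and Uhrf1, which guides maintenance DNA methylation at the fork, by -0.02 (SE 0.07).

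The direction of the members turned with the replicate number. Within number 1 (KO 1 minus WT 1), 29 of the 43 were higher in KO cells, or 67.4%, against 48.8% of all genes and 55.6% of genes above the median gene. Within number 2, 32 were lower in KO cells, or 74.4%, against 38.2% and 39.3%. 21 members (48.8%) were higher in KO 1 and lower in KO 2, a pattern that 17.2% of all genes showed. 5 were higher in KO cells within both numbers (11.6%, against 24.0% of all genes) and 10 were lower within both (23.3%, against 16.8%). The medians were 0.03 within number 1 and -0.06 within number 2, and the median of the members on an array had a pooled SD of 0.06 between arrays of 1 genotype. The members are not independent of one another, and no test was made of these shares.

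Part of the shares rests on ties in the deposited values, since 4436 of all genes but only 4 members had equal KO and WT values within a number. With quantile normalization again, which broke many ties, 52.3% of all genes were lower in KO cells within number 2, beside 34 of the 43 members. With median centring, 62.9% of all genes were higher within number 1, beside 33 members. Within number 1 the members stood closer to the background than within number 2.

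**Figure D2:**
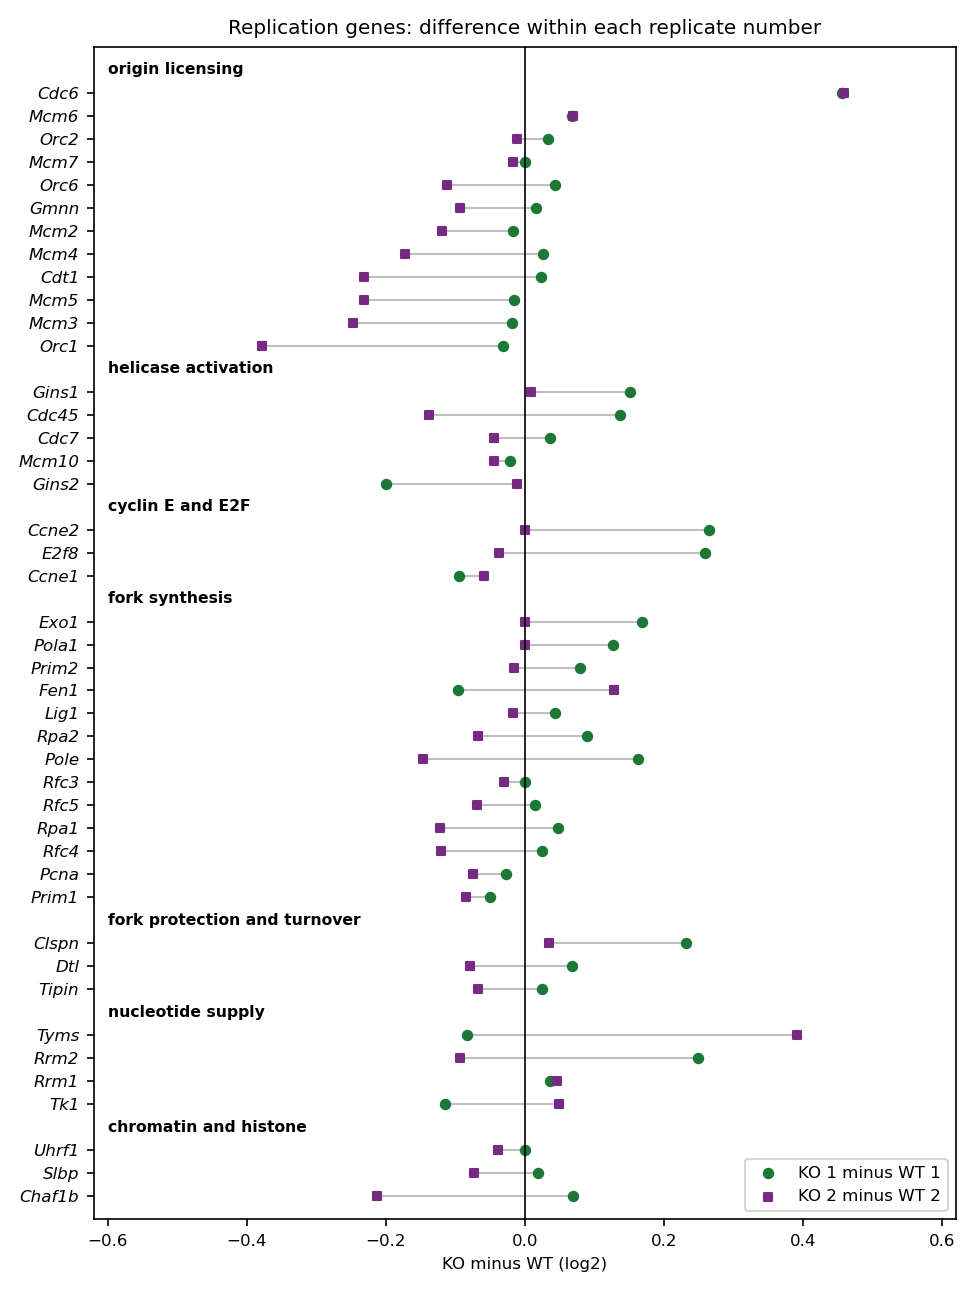
KO minus WT on the log2 scale (horizontal axis) for the 43 measured replication genes by subgroup, within number 1 (circles) and within number 2 (squares). 21 genes have a circle above 0 and a square below 0, and Cdc6 has both marks at 0.46.

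**Figure D3:**
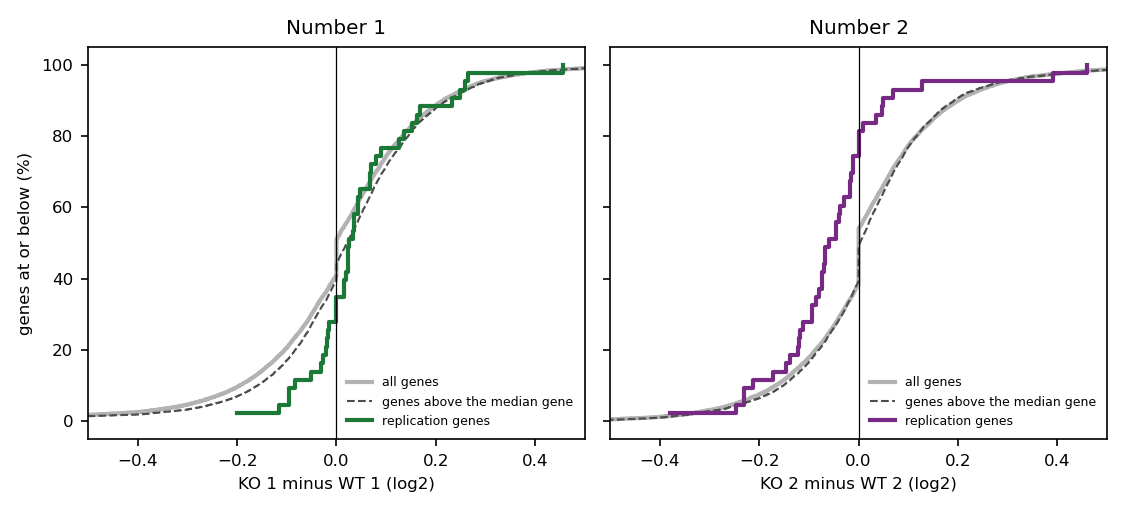
Share of genes (vertical axis, percent) at or below a given KO minus WT difference (horizontal axis, log2) within number 1 and within number 2, for all 18193 genes (grey), genes above the median gene (dashed) and the 43 replication genes (colour). In number 2 the replication genes lie to the left of the others, 32 of 43 being below 0; the step of the grey line at 0 is made of tied values.

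By array, 26 of the 43 members peaked on WT 2, 11 on KO 1, and 3 each on KO 2 and WT 1. WT 1 was the lowest array for 16 members, and 7 members had a tie for lowest. 11 of the 12 dermal fibroblast markers were highest on WT 1, and their sum was lowest on WT 2, at 103. Of these 12 markers, 0 were higher in KO cells within number 1 and 10 within number 2. Their part in the values of the members was not tested. Relative to each gene's mean, the median member stood at 0.07 on WT 2, -0.05 on WT 1, -0.01 on KO 2 and 0.00 on KO 1. The arrays also differed in the median level of all genes: 6.83 on WT 2, 6.91 on WT 1, 6.87 on KO 2 and 6.90 on KO 1. Highest and lowest arrays were counted for the members only, with no share over all genes.

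Arrays of different number often lay further apart than arrays of different genotype. The mean difference between the numbers was larger in size than that between genotypes for 30 of the 43, or 69.8%, a share near the 65.4% of all genes. Both number 2 arrays lay above both number 1 arrays for 16 members (37.2%, against 21.7% of all genes) and below both for 6 (14.0%, against 22.0%). The 16 included all 3 chromatin genes and 7 of the 13 fork synthesis genes. Chaf1b was higher on the array numbered 2 by 0.23 in KO and 0.51 in WT cells, Rpa2 by 0.25 and 0.41, Tk1 by 0.44 and 0.27, and Gins2 by 0.41 and 0.22. These are single differences with no test, and what the number stands for is not given in the labels.

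**Figure D4:**
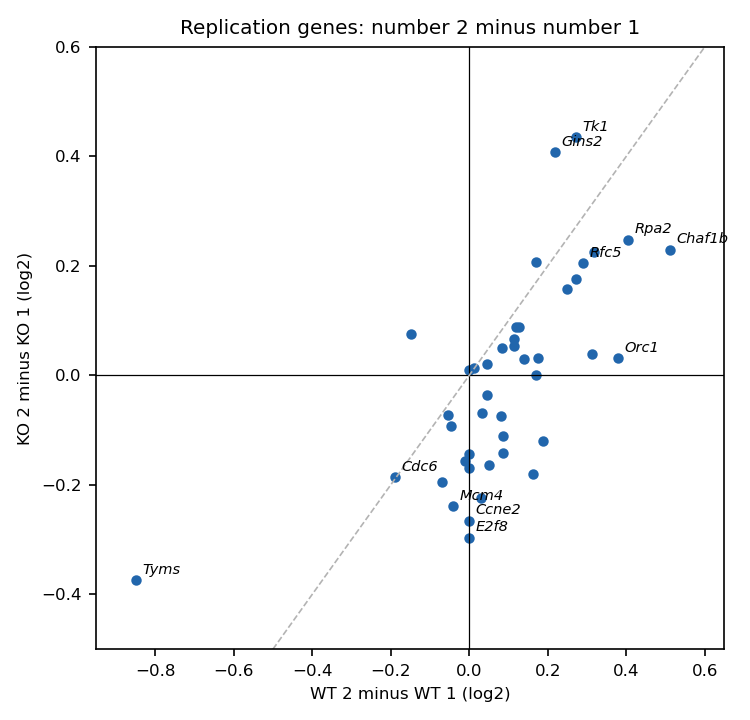
Array number 2 minus array number 1 on the log2 scale for the 43 replication genes, in WT cells (horizontal axis) against KO cells (vertical axis); the dashed line marks equal values. Gins2, Tk1, Rpa2 and Chaf1b are higher on the number 2 arrays in both genotypes, Tyms is lower, and Ccne2 and E2f8 are lower in KO cells alone.

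Replication genes outside the member list gave small differences too. Of 54 further genes of the pathway, 52 were measured and 0 passed with limma over all genes. 1 (Cdk2) had an unadjusted p under 0.05, as did 1.88% of all genes. Their median was 0.00, with 26 higher and 26 lower in KO cells. Cdk2, the kinase that cyclin E activates, was at 9.58 and 9.56 on WT 1 and WT 2 and at 9.43 and 9.38 on KO 1 and KO 2. Both KO arrays lay below both WT arrays, with a difference of -0.17 (SE 0.04, limma unadjusted p = 0.031, adjusted p = 1). Within number 2, 28 of the 52 were lower in KO cells and 21 higher, where 38.2% of all genes were lower. Within number 1, 19 were lower and 30 higher, where 48.8% of all genes were higher. Mitotic genes gave other values on the same arrays: 9 of them, 0 past the threshold and 2 at an unadjusted limma p under 0.05, had a median of 0.18 within number 1 and 0.10 within number 2, where the replication genes had 0.03 and -0.06; the difference between the lists was not tested.

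Of the 97 probe sets of the members, 54 were not chosen, 32 of them above the median gene. 22 of those 32 had the sign of the chosen probe set. 12 members had exactly equal values on at least 2 of the 4 arrays. In 6 of them (Ccne2, E2f8, Exo1, Gins1, Rrm1 and Rpa1) the tie was between the 2 arrays of a genotype, which lowers the spread behind their SE.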

How the data were processed

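RNA of HFSCs from 2 KO and 2 WT samples was measured on 1-colour Affymetrix arrays. The deposited values are log2 expression; the submitters' processing notes name RMA, run by the authors, with no version. RMA in general corrects background, equalises the arrays' distributions and summarises probes, and it leaves folds of dim genes understated. Symbols are those of the platform annotation, updated by gene identifier: 34945 of 45101 probe sets had 1 symbol, 932 several and 9160 none, and 64 were controls.

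KO minus WT was tested two-sided with lmFit and eBayes of limma 3.58.1 (R 4.3.3), without covariates or a filter, and with Benjamini-Hochberg adjustment over 18193 genes. Intervals use the moderated SE. The number of arrays limits the precision. Members, subgroups and lists were chosen with earlier results of these data known. Array values are given for members with an unadjusted p under 0.05, the 5 largest differences per direction, those of at least 0.1 one way within both numbers, each subgroup's largest, and the brightest and dimmest; Mcm6, Gins1, Rrm1 and other probe sets were added after their values were seen.

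Simulated data with known changes served to check the script. In those data, limma at the same threshold recovered 4.2% of 1.5-fold, 44.4% of 2-fold and 71% of 4-fold changes. The alternatives tried were other normalizations, a filter on dim genes, other probe set rules, a replicate block, other eBayes settings and leaving out each array.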

Additional observations from a re-analysis of the deposited data

How the results depend on the processing

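No member and no other replication gene passed with limma under any alternative run; the count of members with an unadjusted p under 0.05 was 1 in all of them except with an array left out, where it was 0 to 4. Of all genes, the 2 calls became 3 with quantile normalization again and with median centring, 1 with dim genes removed, and 0 with probe sets averaged, with every probe set by itself, with the replicate block, and with any 1 array left out (0 to 0, with 1044 to 2044 genes at an unadjusted p under 0.05). The cause was not tested. Deviations from the group means correlated between same-numbered arrays (r = 0.56 across all genes, which are not independent replicates, and 0.67 across the members), but nothing in the labels pairs them; the replicate block gave Cdc6 an unadjusted p of 0.0049 and an adjusted p of 0.81, raised the genes at an unadjusted p under 0.05 from 342 to 879, and left the median at -0.01.

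With 1 array left out, a genotype has a single array, whose spread is taken from the other genotype. In these fits the median of the members ran from -0.083 to 0.041, the members higher in KO from 13 to 30, and the differences of Gins2 from -0.31 to 0.10, of Tyms from -0.27 to 0.58, of Chaf1b from -0.33 to 0.18, of E2f8 from -0.037 to 0.26, of Cdt1 from -0.22 to 0.0078 and of Pcna from -0.11 to 0.0066. Tyms had no value without dim genes. Each probe set by itself gave 39 of 97 higher. The counts within the numbers were recomputed with other settings after seeing the data and ran from 28 to 33 higher within number 1 and from 31 to 34 lower within number 2. Of the 30 members not given in full, 0 to 4 changed sign under other processing and 6 to 15 with an array left out, all of them under 0.08 in size.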
